A study of Homo sapiens with 21 samples.

Results

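Desmosome genes were followed after mir-429 was put into HEY cells, an established human ovarian cancer line. The set held 10 genes: DSP, JUP, PKP2, PKP3, PKP4, DSG2, DSC2, DSC3, PPL and EVPL. It was chosen by gene symbol, taking every probe set that the platform annotation of the HG-U133 Plus 2.0 array gives to these symbols. That made 22 of the 54675 probe sets on the array and 10 of the 19775 genes they name, and no probe set was shared with another gene. Each of 7 groups had 3 arrays, 21 in all. The groups were HEY cells transfected with mir-429 and collected after 24, 48 and 144 h, HEY cells given a synthetic negative control miRNA by the same lipid transfection and collected at the same times, and HEY cells collected at 0 h without transfection. The sample titles of the control arm name its agent only as synthetic miRNA, and the letters nc open the titles of both transfected arms. The treatment protocol speaks of a negative control, and the synthetic miRNA arm was equated with it. All groups were the same line in the same medium, and the labels give no engineered allele and no other agent. Replicates are labelled as biological, but the labels do not say how cultures were separated, so p-values refer only to the spread among these arrays.

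Desmosomes are spot-like junctions that rivet neighbouring epithelial and heart muscle cells together and anchor their intermediate filaments. The desmosomal cadherins, the desmogleins (DSG) and desmocollins (DSC), cross the membrane and bind the neighbouring cell. Inside the cell the armadillo proteins plakoglobin (JUP) and the plakophilins (PKP) bind the cadherin tails and recruit desmoplakin (DSP), whose far end holds keratin or vimentin filaments. Epithelial cells lose these junctions as they turn mesenchymal, and miR-429 belongs to the miR-200 family, known for repressing the transcription factors ZEB1 and ZEB2 that drive that change.

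The agent is shown first, with its family, because the seed (bases 2 to 8, in capitals) is the stretch that mainly guides a miRNA to the messenger RNAs it pairs with. The mature sequences are those of RefSeq (GRCh38.p14), 5′ to 3′. The labels name mir-429 and not the sequence of the synthetic molecule. hsa-miR-429 is encoded on the plus strand at chr1:1169055-1169076.
hsa-miR-429: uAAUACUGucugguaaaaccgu
hsa-miR-200b-3p: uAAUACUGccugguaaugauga
hsa-miR-200c-3p: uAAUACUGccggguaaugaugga
hsa-miR-200a-3p: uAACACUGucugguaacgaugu
hsa-miR-141-3p: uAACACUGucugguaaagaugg
The first 3 share the seed AAUACUG, and the last 2 share AACACUG. Only the first of the 5 was added to these cells.

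The promoters of DSP, DSG2 and DSC2, desmosome genes called higher in mir-429 cells at 24 h, are shown because ZEB1 and ZEB2 are known to bind E-boxes with the letters CAGGTG, read on the other strand as CACCTG. RefSeq promoter entries (GRCh38.p14, 250 bases before to 50 after the gene's start) were found for DSP, JUP, PKP4, DSG2, DSC2 and DSC3. PKP2, PKP3, PPL and EVPL had no entry. The 250 bases before the start are given 5′ to 3′ on the gene's strand with either motif in capitals, for DSP at chr6:7541421-7541670 (plus strand), DSG2 at chr18:31497927-31498176 (plus strand) and DSC2 at chr18:31101261-31101510 (minus strand).
DSP: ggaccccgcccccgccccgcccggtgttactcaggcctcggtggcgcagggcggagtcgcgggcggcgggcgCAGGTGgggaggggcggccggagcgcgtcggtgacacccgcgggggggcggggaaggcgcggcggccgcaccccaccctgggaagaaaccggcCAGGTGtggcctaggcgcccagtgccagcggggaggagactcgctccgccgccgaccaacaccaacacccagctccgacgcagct
DSG2: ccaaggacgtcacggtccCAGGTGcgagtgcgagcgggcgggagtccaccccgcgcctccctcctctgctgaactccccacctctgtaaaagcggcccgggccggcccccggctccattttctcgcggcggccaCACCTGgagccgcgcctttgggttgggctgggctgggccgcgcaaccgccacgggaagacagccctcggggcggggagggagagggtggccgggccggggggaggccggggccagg
DSC2: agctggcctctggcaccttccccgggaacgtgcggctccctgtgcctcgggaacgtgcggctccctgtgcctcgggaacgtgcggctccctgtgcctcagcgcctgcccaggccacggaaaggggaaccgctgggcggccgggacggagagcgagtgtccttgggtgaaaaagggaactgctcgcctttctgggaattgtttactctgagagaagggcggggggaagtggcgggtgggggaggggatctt
DSP held the motif at -178 and -85 and DSG2 at -232 and -116, counted from the start site to the first letter, and DSC2 held none. JUP held it at -54 and -43, and PKP4 and DSC3 held none. Thus 3 of 6 entries held it, against 20.6% of 35116 promoters of the same 300 bases. A match describes letters in a window and is not a measured site.

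Levels are given on the log2 scale of the deposited table, where a difference of 1 is a doubling. A gene was represented by its brightest probe set and tested if the level of that probe set exceeded the array median on at least 3 arrays. Array medians lay between 3.95 and 4.29. By this measure 6 of the 10 genes were tested: DSP, PKP2, PKP4, DSG2 and DSC2 lay above the median on 21 of 21 arrays and PKP3 on 20. None of these 6 passed through 1 group alone. JUP lay above the median on 2 arrays and DSC3, PPL and EVPL on 0. Of 5 further desmosomal cadherin and plakophilin genes (PKP1, DSG1, DSG3, DSG4 and DSC1), each lay above the median on 0 arrays. PERP, a membrane protein of desmosomes, did so on 21.

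The arrays bear on the label of the cells in the following way. Of 8 ovarian carcinoma markers, PAX8, WT1, KRT7, KRT8 and KRT18 lay above the median on 21 arrays, while MUC16, EPCAM and CDH1 (E-cadherin) did so on 0. Of 7 leukocyte markers with a probe set, CD14 lay above it on 1 array and the others on 0. The summed leukocyte level lay between 5.18 and 5.84 in every group. Of the endothelial markers, CDH5 and ROBO4 lay above the median on 21 arrays and KDR on 19, while PECAM1 did so on 3, TEK on 2 and VWF on 1. Of the fibroblast markers, COL1A1 did so on 21 arrays, PDGFRB on 20, THY1 on 16, DCN on 1 and COL1A2, COL3A1 and LUM on 0. The RNA was amplified from its 3′ end, and the gap between 3′ and 5′ control probe sets of GAPDH and ACTB was wide at 48 h in both arms. It averaged 2.87 ± 0.36 in mir-429 cells and 4.21 ± 0.21 in control cells at 24 h, 8.55 ± 0.15 and 7.83 ± 0.62 at 48 h, and 3.35 ± 0.13 and 3.90 ± 0.47 at 144 h, against 3.15 ± 0.53 in untransfected cells (log2, SD, n = 3 each). At 24 h the arms did not overlap in it, with 2.54 to 3.25 on mir-429 arrays, against 4.004 to 4.43 on control arrays. The arms and the gap thus cannot be told apart there beyond a fit with the gap as a covariate. That fit kept 3 of the 5 desmosome calls of 24 h. Over all 12879 genes tested it called 614 at 24 h, against 3425 without the covariate. Calls of genes outside the desmosome set at 24 h are given below without this covariate. Comparisons of a 48 h group with another time also compare different 3′ to 5′ gaps, and time and this gap cannot be told apart in them.

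DSP and the plakophilins PKP2 and PKP3 were the desmosome genes that moved most. All were higher in mir-429 cells than in control cells at 24 and 48 h, by 2.30- to 3.71-fold, and DSP was the only one of them still called at 144 h. DSG2 and DSC2, the desmosomal cadherins above the array median, rose less and passed the test at 24 h but not at 48 or 144 h. PKP4 was called higher at no time and lower at 144 h. In a culture measured in bulk, fewer cells of a type and less RNA per cell cannot be told apart.

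**Figure D1:**
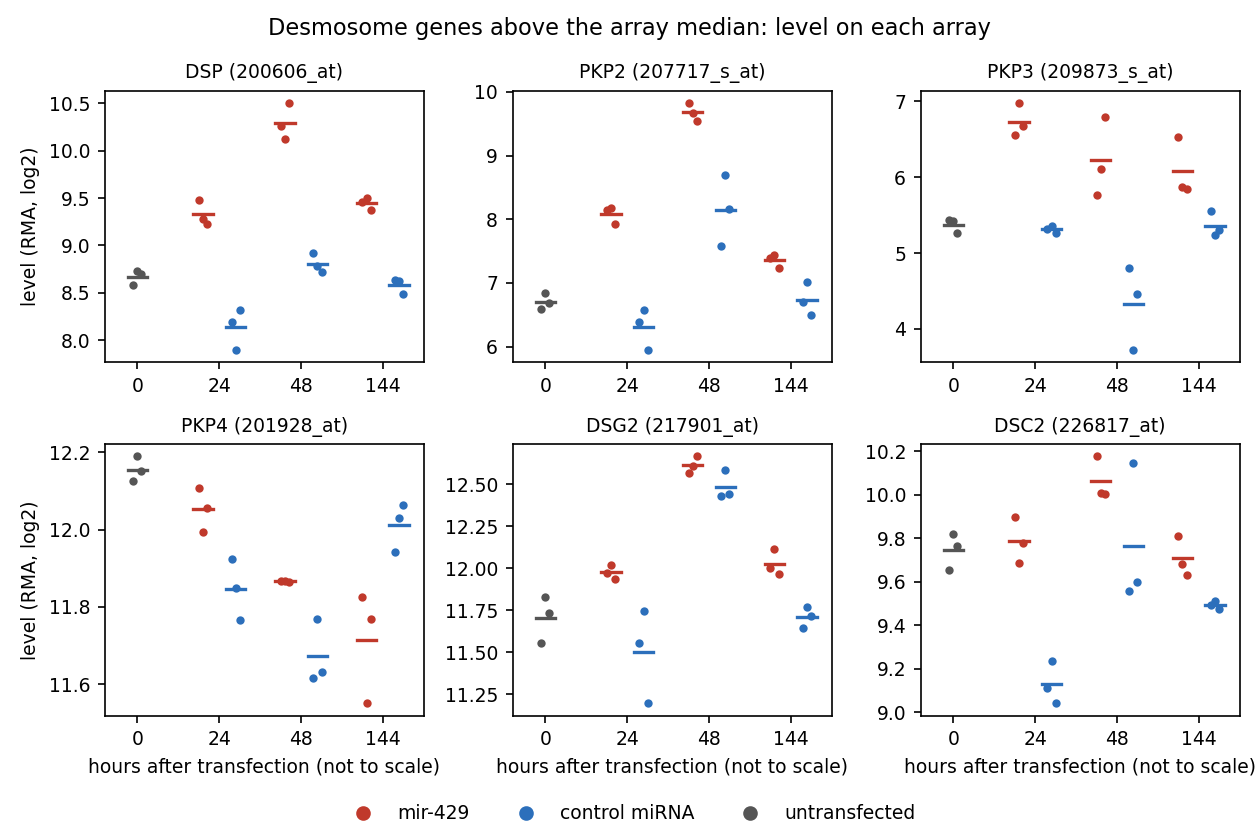
Level of each of the 6 tested desmosome genes (log2 expression value of its brightest probe set) on every array, by time, with mir-429, control and untransfected cells; points are single arrays and bars are group means. All 3 mir-429 arrays of DSP, PKP2 and PKP3 lie above all 3 control arrays at each time, and DSP, PKP2, DSG2 and DSC2 have their highest transfected mean at 48 h in both arms.

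DSP, desmoplakin, is the plakin that ties the junction to intermediate filaments, and 1 probe set measured it. At 24 h its level was 9.48, 9.28 and 9.23 in mir-429 cells, against 8.19, 7.90 and 8.32 in control cells. At 48 h it was 10.26, 10.13 and 10.50 in mir-429 cells, against 8.92, 8.78 and 8.72 in control cells. At 144 h it was 9.46, 9.50 and 9.37 in mir-429 cells, against 8.63, 8.63 and 8.49 in control cells. The lowest mir-429 array of each time lay above the highest control array of any time, and above all untransfected arrays, which read 8.58, 8.73 and 8.70. At 24 h the log2 change was 1.20 ± 0.12 (limma, adjusted p = 1.33e-06), at 48 h 1.49 ± 0.12 (adjusted p = 5.38e-08) and at 144 h 0.86 ± 0.12 (adjusted p = 0.000293; SE, n = 3 each). The first corresponds to 2.30-fold, the second to 2.81-fold and the last to 1.82-fold. Adding the gap between 3′ and 5′ control probe sets as a covariate left these changes at 1.20, 1.49 and 0.86, all still called.

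PKP2, plakophilin 2, an armadillo protein that joins cadherin tails to desmoplakin, had the largest change of the 6 at 24 h. Its bright probe set read 8.14, 8.17 and 7.93 in mir-429 cells, against 6.39, 6.58 and 5.95 in control cells at 24 h. At 48 h it read 9.83, 9.67 and 9.54 in mir-429 cells, against 7.58, 8.69 and 8.16 in control cells. At 144 h it read 7.39, 7.44 and 7.23 in mir-429 cells, against 6.70, 7.01 and 6.49 in control cells. The arms did not overlap at any time, although the control arrays at 48 h spread over more than 1 log2 unit. Untransfected cells read 6.59, 6.84 and 6.69, close to control cells at 144 h. PKP2 rose by 1.78 ± 0.21 at 24 h (limma, adjusted p = 1.23e-05) and by 1.54 ± 0.21 at 48 h (adjusted p = 3.88e-05), or 3.42- and 2.91-fold. At 144 h the difference was 0.62 ± 0.21 and was not called (adjusted p = 0.0973). It was called there when the 48 h arrays were left out of the fit (adjusted p = 0.0259), when arrays were weighted by group (0.0118) and when only the arrays compared were fitted (0.0428). The other 12 of 15 alternatives left it uncalled. Among these were the 3′ to 5′ covariate (0.47, adjusted p = 0.265) and the probe set mean (0.46, adjusted p = 0.103). The other PKP2 probe set read only 2.01 to 3.65 over the 21 arrays, below their medians, and averaging both probe sets gave 1.13 at 24 h and 0.95 at 48 h, still called.

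PKP3, plakophilin 3, binds most desmosomal cadherins and is broadly found in epithelia. It read 6.55, 6.98 and 6.67 in mir-429 cells, against 5.32, 5.35 and 5.27 in control cells at 24 h. At 48 h it read 5.76, 6.11 and 6.80 in mir-429 cells, against 4.81, 3.72 and 4.46 in control cells. At 144 h it read 6.53, 5.87 and 5.85 in mir-429 cells, against 5.55, 5.23 and 5.30 in control cells. Every mir-429 array again lay above every control array of its time, and above the untransfected arrays at 5.43, 5.42 and 5.26. The log2 change was 1.42 ± 0.26 at 24 h (limma, adjusted p = 0.000579; 2.67-fold), 1.89 ± 0.26 at 48 h (adjusted p = 3.27e-05; 3.71-fold) and 0.72 ± 0.26 at 144 h (adjusted p = 0.113). The last was called without the 48 h arrays in the fit (adjusted p = 0.0149) and with arrays weighted by group (0.0192). It stayed uncalled in the other 13 of 15 alternatives. Among these were the 3′ to 5′ covariate (0.80, adjusted p = 0.124) and the probe set mean (0.18, adjusted p = 0.56). At 48 h the change was the largest of the 3 genes, and the control arrays there were the lowest of any group. Their mean of 4.33 lay near the mean array median of 4.18, and replicate 2, at 3.72, lay below its array median of 4.17. The size of the 48 h change thus rests on a control level near the array median, at the time of the wide 3′ to 5′ gap. The second PKP3 probe set was dim, between 2.85 and 3.96, and averaging both gave 0.80 at 24 h and 0.98 at 48 h, still called.

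PKP4, also called p0071, is a relative of the plakophilins that sits at both adherens junctions and desmosomes. Its brightest probe set, 201928_at, read 12.11, 11.99 and 12.06 in mir-429 cells, against 11.92, 11.85 and 11.77 in control cells at 24 h. At 48 h it read 11.87, 11.87 and 11.86 in mir-429 cells, against 11.62, 11.77 and 11.63 in control cells. At 144 h it read 11.83, 11.55 and 11.77 in mir-429 cells, against 11.94, 12.03 and 12.06 in control cells. The mir-429 arrays thus lay above the control arrays at 24 and 48 h and below them at 144 h, with small distances throughout. The change was 0.21 ± 0.09 at 24 h (limma, adjusted p = 0.0847), 0.19 ± 0.09 at 48 h (adjusted p = 0.124) and -0.30 ± 0.09 at 144 h (adjusted p = 0.048). That last call was lost when any 1 of the 6 arrays compared was left out, with adjusted p between 0.0529 and 0.23.

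A dimmer PKP4 probe set, 240379_at, showed a larger fall at 144 h. It read 4.26, 4.91 and 5.37 in mir-429 cells, against 6.17, 5.84 and 6.06 in control cells, without overlap. Over the 30519 probe sets tested singly its change was -1.18 ± 0.21 (limma, adjusted p = 0.00327, beside 3.42% of probe sets called lower), while 201928_at was not called there. At 24 and 48 h 240379_at was not called, at -0.15 ± 0.21 and 0.12 ± 0.21. The other 3 PKP4 probe sets, 201927_s_at, 201929_s_at and 214874_at, were not called between mir-429 and control cells at any time. Which transcripts each probe set reads was not analysed here.

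DSG2, desmoglein 2, is the desmoglein of simple epithelia and of heart muscle. It read 11.97, 12.02 and 11.94 in mir-429 cells, against 11.56, 11.74 and 11.19 in control cells at 24 h. At 48 h it read 12.56, 12.61 and 12.67 in mir-429 cells, against 12.43, 12.59 and 12.44 in control cells. At 144 h it read 12.004, 12.12 and 11.96 in mir-429 cells, against 11.64, 11.77 and 11.71 in control cells. The arms were apart at 24 and 144 h and overlapped at 48 h, when both were at their highest. DSG2 rose by 0.48 ± 0.11 at 24 h (limma, adjusted p = 0.00492; 1.39-fold). The call was lost with the 3′ to 5′ covariate (0.36 ± 0.17, adjusted p = 0.265) and in a fit of the 24 h arrays alone (adjusted p = 0.0592). The change was 0.13 ± 0.11 at 48 h, with a 95% interval from -0.11 to 0.37 (adjusted p = 0.49), and 0.32 ± 0.11 at 144 h (adjusted p = 0.114, or 0.0221 with arrays weighted by group). The other 14 of 15 alternatives left the 144 h change uncalled, with adjusted p up to 0.305. Averaged over the times it rose by 0.31 ± 0.07 (adjusted p = 0.00179). Its second probe set, 1553105_s_at, rose on the same average by 0.44 ± 0.13 (adjusted p = 0.0239 over probe sets, of which 8.93% were called higher).

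DSC2, desmocollin 2, is the partner cadherin of simple epithelia. Its brightest probe set, 226817_at, read 9.90, 9.68 and 9.78 in mir-429 cells, against 9.11, 9.23 and 9.04 in control cells at 24 h. At 48 h it read 10.18, 10.01 and 10.01 in mir-429 cells, against 9.56, 10.15 and 9.60 in control cells. At 144 h it read 9.81, 9.68 and 9.63 in mir-429 cells, against 9.49, 9.51 and 9.47 in control cells. Only replicate 2 of the control cells at 48 h reached the mir-429 arrays. DSC2 rose by 0.66 ± 0.13 at 24 h (limma, adjusted p = 0.000934; 1.58-fold), and the differences of 0.30 ± 0.13 at 48 h (adjusted p = 0.107) and 0.22 ± 0.13 at 144 h (adjusted p = 0.372) were not called. Without replicate 2 of the control cells the 48 h difference was 0.49 ± 0.10 and was called (adjusted p = 0.00202). The other 13 of 14 alternatives left the 48 h difference uncalled. The 24 h call was lost with the 3′ to 5′ covariate (0.54 ± 0.19, adjusted p = 0.124) and when the 4 DSC2 probe sets were averaged (0.10 ± 0.17, adjusted p = 0.721). The other 3 probe sets, 204750_s_at, 204751_x_at and 231033_at, were called at no time between mir-429 and control cells, so the rise of DSC2 rests on 226817_at.

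**Figure D2:**
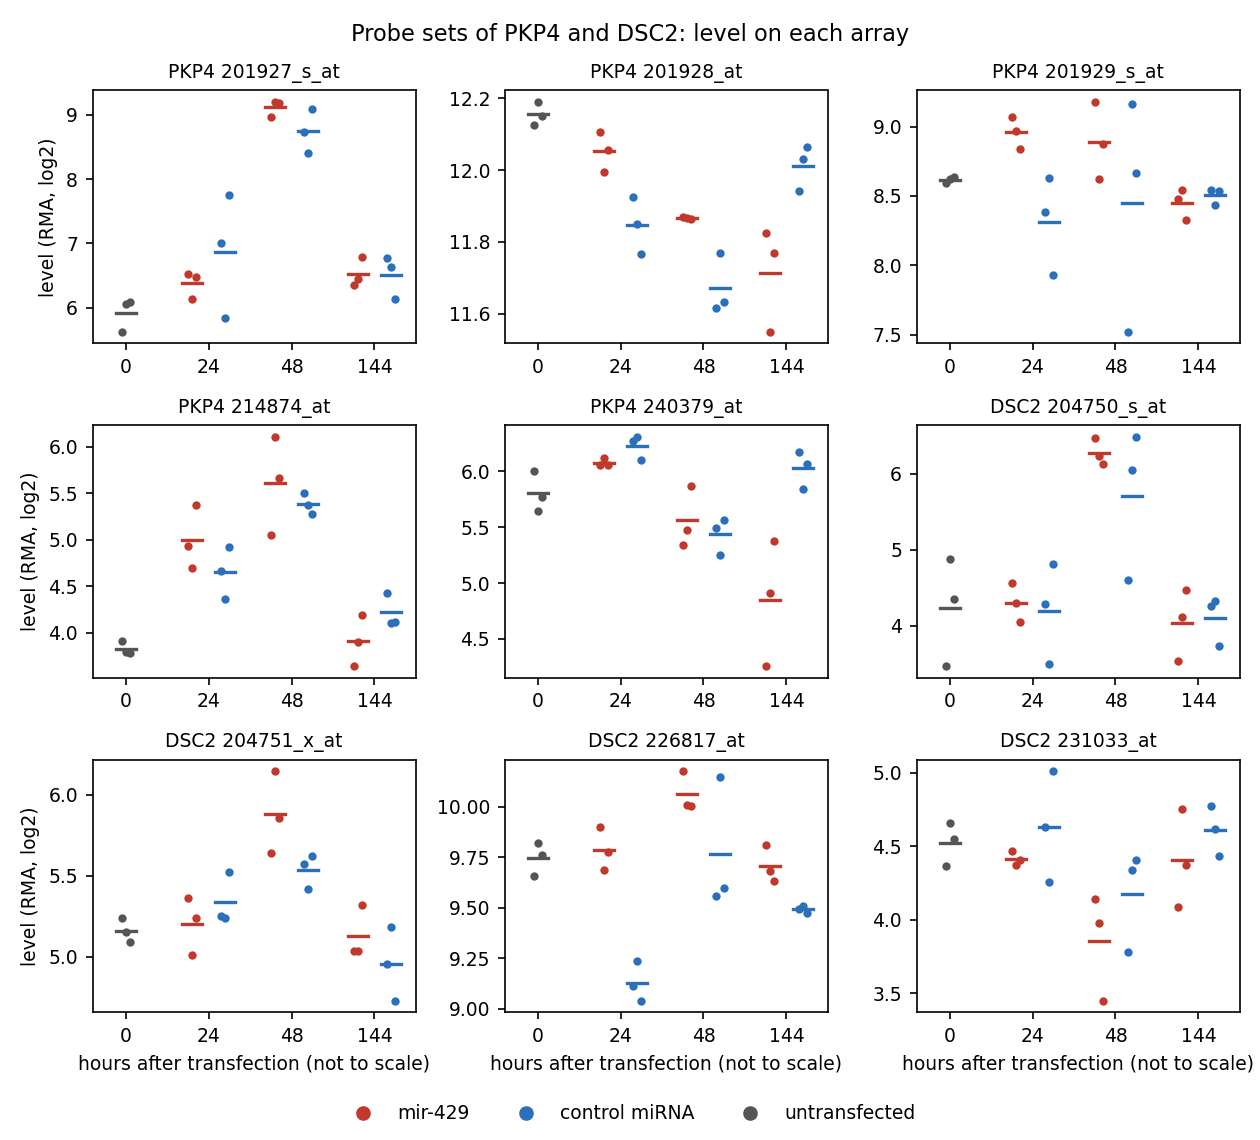
Level of each PKP4 and DSC2 probe set (log2 expression value) on every array, by time, with mir-429, control and untransfected cells. Points are single arrays and bars are group means. Of the DSC2 probe sets, only 226817_at has all mir-429 arrays above all control arrays at 24 h. The mir-429 arrays of PKP4 240379_at lie below all control arrays at 144 h.

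The desmosomal cadherin genes lie side by side on chromosome 18, in the order DSC3, DSC2, DSC1, DSG1, DSG4, DSG3 and DSG2 in RefSeq. DSC2 and DSG2, near opposite ends of the row, lay above the median on 21 arrays, and the brightest probe sets of the other 5 genes lay above it on 0. DSC3, a desmocollin of stratified epithelia, read between 1.22 and 4.01 over its 3 probe sets, of which 244107_at exceeded the array median on 1 array. JUP, plakoglobin, the armadillo protein shared by desmosomes and adherens junctions, read 4.14, 5.11 and 3.999 in mir-429 cells, against 4.39, 4.08 and 3.81 in control cells at 48 h. Its 2 arrays above the median were replicate 2 of the mir-429 cells and replicate 1 of the control cells, both at 48 h, and the arms overlapped. At the other times JUP lay between 3.28 and 4.05. The plakins periplakin (PPL) and envoplakin (EVPL), which build the cornified envelope of stratified epithelia, read 2.28 to 3.75 and 2.27 to 3.72. The JUP arrays of both arms at 48 h lay above those of untransfected cells, which read 3.59, 3.28 and 3.53. These 4 genes did not pass the filter on low values, so none of these differences was tested.

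**Figure D3:**
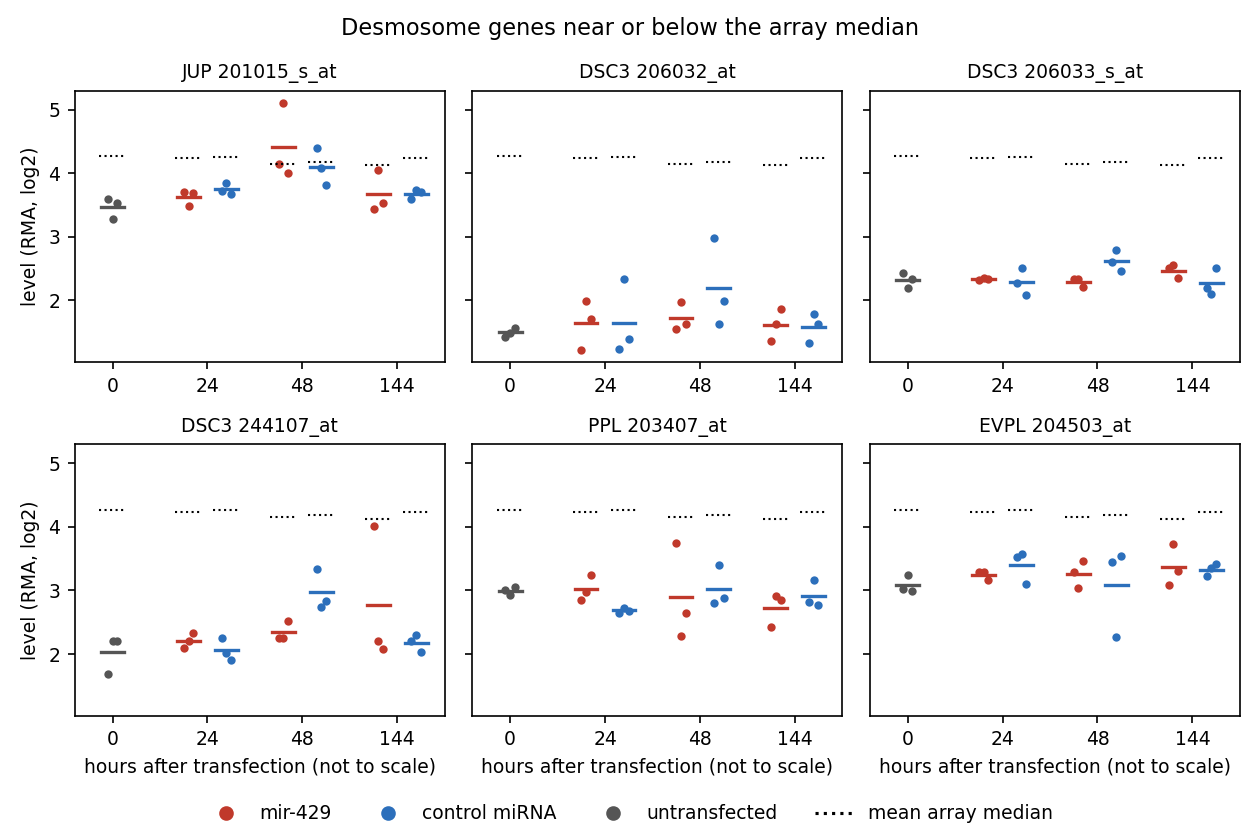
Level of JUP, DSC3, PPL and EVPL (log2 expression value) on every array against the array medians, by group. Almost all points lie below the medians, and JUP reaches 5.11 on 1 mir-429 array at 48 h.

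Counted by comparison, 5 of the 6 tested genes were higher in mir-429 than in control cells at 24 h and 0 were lower. Over all 12879 genes tested, 26.6% were called at that time, 15% higher and 11.6% lower. At 48 h 3 of the 6 were higher and 0 lower, beside 20.6% of all genes called, 9.32% higher and 11.3% lower. At 144 h DSP was higher and PKP4 lower, beside 5.85% called, 1.48% higher and 4.37% lower. Averaged over the times, 5 were higher, beside 28% of all genes called and 12.6% called higher. The averaged changes were 1.18 ± 0.07 for DSP, 1.31 ± 0.12 for PKP2, 1.34 ± 0.15 for PKP3 and 0.39 ± 0.07 for DSC2 (limma, adjusted p of 7.52e-10, 2.8e-07, 2.11e-06 and 0.000544). PKP4 averaged 0.03 ± 0.05 (adjusted p = 0.655).

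Without a test, all 3 mir-429 arrays lay above all 3 control arrays for 6 of the 6 genes at 24 h, where 20.3% of all genes did so. That held for 4 of the 6 at 48 h, beside 13.5% of all genes, and for 5 of the 6 at 144 h, beside 13.1%. The exception at 144 h was PKP4, whose arrays lay wholly below, as did those of 20.9% of all genes. The median change of the 6 was 0.93 at 24 h, 0.89 at 48 h and 0.47 at 144 h, while that of all genes was -0.02, -0.01 and -0.04. PKP2 and PKP3 at 144 h therefore sat apart from their controls on every array without passing the adjusted test.

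**Figure D4:**
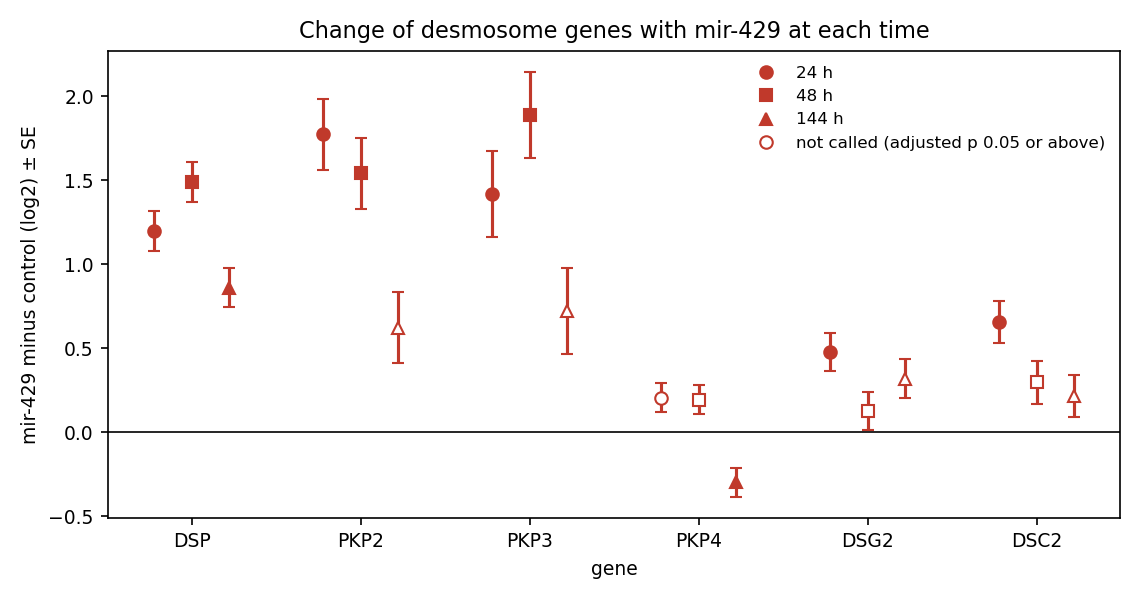
Log2 change between mir-429 and control cells with SE for the 6 tested genes at 24, 48 and 144 h; filled points passed an adjusted p of 0.05 and open points did not. DSP, PKP2 and PKP3 lie between 1.20 and 1.89 at 24 and 48 h and between 0.62 and 0.86 at 144 h.

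Whether the mir-429 change differed between times was tested as a difference of differences. From 24 to 48 h no tested desmosome gene differed (limma, 0 called at adjusted p 0.05, 1 at an unadjusted p of 0.05, namely DSG2), beside 4.89% of all genes. DSG2 and DSC2 gave -0.35 ± 0.16 (adjusted p = 0.188) and -0.36 ± 0.18 (adjusted p = 0.217), and DSP gave 0.29 ± 0.17 (adjusted p = 0.289). At 144 h the change was smaller than at 48 h for DSP, with a difference of -0.63 ± 0.17 (adjusted p = 0.0219), and for PKP3, at -1.17 ± 0.36 (adjusted p = 0.0493). PKP4 turned from a small positive to a negative change, a difference of -0.49 ± 0.12 (adjusted p = 0.0148). These 3 stand beside 9.47% of all genes called and 5.62% called lower. PKP2 gave -0.92 ± 0.30 (adjusted p = 0.0612), which passed with the 3′ to 5′ covariate (-1.28 ± 0.36, adjusted p = 0.0419), with a replicate block (adjusted p = 0.0313) and without replicate 2 of the control cells at 48 h (-1.19 ± 0.26, adjusted p = 0.00634). The other 17 of 20 alternatives left it uncalled.

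These calls between 48 and 144 h depended on the settings. The PKP4 call was lost with the 3′ to 5′ covariate (-0.50 ± 0.15, adjusted p = 0.0655) and when only the arrays compared were fitted (adjusted p = 0.0514). The PKP3 call was lost in 16 of 20 alternatives, with adjusted p up to 0.225. The DSP call was lost with the 3′ to 5′ covariate (-0.62 ± 0.21, adjusted p = 0.0924) and when 1 array was left out (replicate 1 or 2 of control cells at 144 h, or replicate 3 of mir-429 cells at 48 or 144 h), with adjusted p between 0.0522 and 0.0616. Against 24 h, a comparison added after the data were seen, the 144 h change was lower for PKP2, with a difference of -1.15 ± 0.30 (limma, adjusted p = 0.0128), and for PKP4, at -0.50 ± 0.12 (adjusted p = 0.00875). The PKP2 call was lost with the covariate (-0.93 ± 0.31, adjusted p = 0.0682) and with the mean of its probe sets (-0.67 ± 0.22, adjusted p = 0.0546), and the PKP4 call with the mean of its probe sets (-0.48 ± 0.16, adjusted p = 0.0509). There 18.6% of all genes were called and 12.3% were called lower. DSP gave -0.34 ± 0.17 (adjusted p = 0.174), PKP3 -0.70 ± 0.36 (adjusted p = 0.197), DSC2 -0.44 ± 0.18 (adjusted p = 0.092) and DSG2 -0.16 ± 0.16 (adjusted p = 0.55).

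Untransfected cells gave a second baseline, shared by all 6 comparisons that follow, so these are not independent of each other. At 24 h mir-429 cells were above untransfected cells for DSP by 0.66 (limma, adjusted p = 0.000462), for PKP2 by 1.37 (adjusted p = 0.000123) and for PKP3 by 1.36 (adjusted p = 0.000751), beside 23% of all genes called and 11.7% called higher. DSC2 and DSG2 were not called, at 0.04 (adjusted p = 0.859) and 0.27 (adjusted p = 0.1). Control cells at 24 h were below untransfected cells for 3 genes, with differences of -0.54 ± 0.12 for DSP (adjusted p = 0.00173), -0.62 ± 0.13 for DSC2 (adjusted p = 0.000979) and -0.31 ± 0.09 for PKP4 (adjusted p = 0.00864), beside 38% of all genes called and 19.8% called lower. Set side by side, DSC2 at 24 h differed from untransfected cells by 0.04 in mir-429 cells and by -0.62 in control cells, and the gap between the arms was 0.66. PKP3 differed from them by 1.36 in mir-429 cells and by -0.05 in control cells.

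At 48 h mir-429 cells were above untransfected cells for DSP by 1.63, PKP2 by 2.97, DSG2 by 0.91, PKP3 by 0.85 and DSC2 by 0.32, and below them for PKP4, at -0.29 (limma, adjusted p from 5.07e-09 to 0.0392). In the same comparison 56.7% of all genes were called, 19.1% higher and 37.6% lower. Other probe sets of PKP4 and DSC2 are given below, and not all went the same way. Control cells at 48 h were above untransfected cells for PKP2 by 1.43 (adjusted p = 2.1e-05) and DSG2 by 0.78 (adjusted p = 1.89e-05). They were below them for PKP3, at -1.04 (adjusted p = 0.00224), and PKP4, at -0.48 (adjusted p = 0.000131), beside 54.5% of all genes called, 18.4% higher and 36.1% lower. With the 3′ to 5′ covariate 1 of the 6 calls of mir-429 cells and 0 of the 4 calls of control cells held. Calls over all genes with that covariate are not given for these comparisons. Both arms at 48 h thus lay above untransfected cells in PKP2 and DSG2 and below them in PKP4, while PKP3 went opposite ways. Both also had the wide 3′ to 5′ gap given above, and the part of that gap was not tested beyond the covariate.

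By 144 h control cells were called for 0 of the 6 genes against untransfected cells (limma, 0 also at an unadjusted p of 0.05), beside 0.474% of all genes. Their arrays lay wholly below for PKP4 and DSC2, with differences of -0.14 and -0.25, as did those of 15.9% of all genes. At that time mir-429 cells were above untransfected cells for DSP by 0.77 (adjusted p = 0.000331) and PKP2 by 0.65 (adjusted p = 0.04), and below them for PKP4, at -0.44 (adjusted p = 0.00231), beside 18.9% of all genes called, 6.62% higher and 12.3% lower. Leaving out any 1 of these 6 arrays left 1 gene called higher in place of 2, and in the fit over probe sets PKP2 missed the threshold (adjusted p = 0.0539). PKP3 at 0.71 (adjusted p = 0.0593) and DSG2 at 0.32 (adjusted p = 0.0568) missed the threshold.

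**Figure D5:**
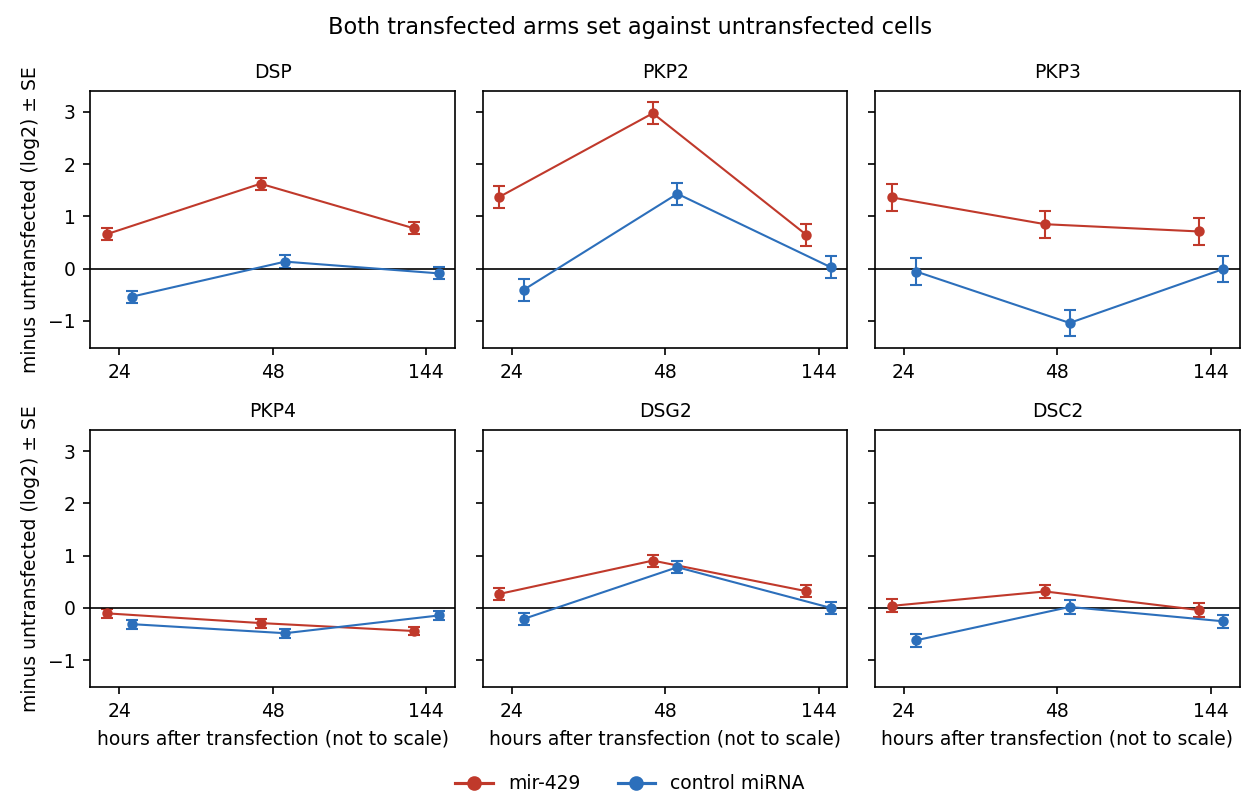
Log2 difference from untransfected cells with SE for the 6 tested genes in mir-429 and control cells at 24, 48 and 144 h. The line of mir-429 cells lies above that of control cells for DSP, PKP2 and PKP3 at each time, DSP, PKP2, DSG2 and DSC2 have their highest value at 48 h in both arms, and control cells lie between -0.25 and 0.03 at 144 h.

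The 7 groups fell into a different order for each gene. For DSP the 3 mir-429 groups were the highest, with means of 9.33, 10.30 and 9.44 in time order, and the 24 and 144 h arrays overlapped. Control cells at 24 h were lowest at 8.13, apart from control cells at 144 h (8.58), untransfected cells (8.67) and control cells at 48 h (8.81), whose neighbours overlapped. For PKP3 the mir-429 groups were also the highest, at 6.73, 6.22 and 6.08 in time order, and these neighbours overlapped. For PKP2 control cells at 48 h, at 8.14, overlapped with mir-429 cells at 24 h, at 8.08, and lay above mir-429 cells at 144 h, at 7.35. For DSG2 both 48 h groups were the highest, at 12.61 in mir-429 cells and 12.49 in control cells. For DSC2 mir-429 cells at 48 h were highest at 10.06, and control cells at 24 h were lowest at 9.13. For PKP4 untransfected cells were highest at 12.16.

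PKP4 and DSC2 also showed probe sets that parted at 48 h. PKP4 201927_s_at read 8.96, 9.20 and 9.18 in mir-429 cells and 8.73, 8.41 and 9.09 in control cells at 48 h, against 5.63, 6.05 and 6.08 in untransfected cells. It rose over untransfected cells by 3.19 ± 0.33 in mir-429 cells (limma, adjusted p = 5.57e-07) and by 2.82 ± 0.33 in control cells (adjusted p = 2.59e-06), while 201928_at of the same gene fell in both arms. Of the probe sets tested singly, 54.7% were called in the first comparison and 52.6% in the second. DSC2 204750_s_at averaged 6.27 in mir-429 cells and 5.71 in control cells at 48 h, against 4.23 in untransfected cells, where it lay below the array median. DSC2 226817_at averaged 10.06, 9.77 and 9.75 in the same groups, and 204751_x_at averaged 5.88, 5.54 and 5.16. DSC2 231033_at went the other way, averaging 3.86, 4.17 and 4.52, and was called lower in mir-429 cells (limma, adjusted p = 0.0156). Its means lay below the mean array median in both 48 h groups. Positions of these probe sets along their transcripts were not analysed here, so how far they follow the 3′ to 5′ gap was not tested.

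ZEB1, a repressor of epithelial junction genes, was lower in mir-429 than in control cells at 24 and 48 h. The changes were -1.29 ± 0.15 at 24 h (limma, adjusted p = 6.49e-06) and -1.72 ± 0.15 at 48 h (adjusted p = 1.36e-07). At 144 h its difference was -0.14 ± 0.15 (adjusted p = 0.655). Any link between ZEB1 and the desmosome genes was not tested. ZEB2 was lower at 48 h, at -1.12 ± 0.18 (adjusted p = 0.000215), and was not called at 24 h (-0.43, adjusted p = 0.0893) or 144 h (-0.33, adjusted p = 0.329). Among 7 tested transcription factors of junction genes, 4 were higher and 1 lower at 24 h, 1 higher and 2 lower at 48 h, and 0 called at 144 h. Over all genes 15% were higher and 11.6% lower at 24 h, 9.32% and 11.3% at 48 h, and 5.85% were called at 144 h. KLF4, a factor of epithelial differentiation, was higher by 0.84 ± 0.10 at 24 h (adjusted p = 1.55e-05) and by 0.43 ± 0.10 at 48 h (adjusted p = 0.00554). TWIST1, known for driving mesenchymal change, was also higher at 24 h, by 0.69 ± 0.16 (adjusted p = 0.00313). GRHL1, known in mouse skin for activating a desmoglein gene, was dim in control cells and at least 0.25 higher (log2) at 24 h (adjusted p = 0.00724). KLF5, named after its values were seen, was the remaining factor higher at 24 h, by 0.32 ± 0.10 (adjusted p = 0.03).

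Genes that build or border the same structures were counted by list. For comparison, 15% of all genes tested were called higher at 24 h, 9.32% at 48 h and 1.48% at 144 h. PERP differed by 0.24 ± 0.09, 0.09 ± 0.09 and 0.30 ± 0.09 at 24, 48 and 144 h, called at no single time (limma, adjusted p between 0.0571 and 0.567) but on average (0.21 ± 0.05, adjusted p = 0.00605). Of 6 tested intermediate filament genes, the partners of desmoplakin, 1 was higher at 24 h, 3 were at 48 h and 1 at 144 h. None were lower. KRT7 rose by 0.83 ± 0.17 at 24 h (adjusted p = 0.00151) and by 0.93 ± 0.17 at 48 h (adjusted p = 0.000689). KRT8 and KRT18, the keratin pair of simple epithelia, rose at 48 h by 0.90 ± 0.22 (adjusted p = 0.00655) and 0.71 ± 0.14 (adjusted p = 0.00173), and KRT18 at 144 h by 0.50 ± 0.14 (adjusted p = 0.0492). VIM, the mesenchymal filament protein, gave -0.11, -0.02 and 0.15 and was not called.

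Of 5 tested adherens junction genes, 2 were higher at 24 h, 1 at 48 h and 0 at 144 h. Over all genes 15%, 9.32% and 1.48% were called higher at these times, and 11.6%, 11.3% and 4.37% lower. CTNNB1, beta-catenin, the close relative of plakoglobin, rose by 0.90 ± 0.14 at 24 h (limma, adjusted p = 0.000136) and by 0.78 ± 0.14 at 48 h (adjusted p = 0.000485), and at 144 h its difference was -0.01 ± 0.14. CDH2, N-cadherin, rose by 0.27 ± 0.09 at 24 h (adjusted p = 0.0333). Of 4 other plakins, MACF1 rose by 0.75 ± 0.16 at 24 h (adjusted p = 0.0025) and EPPK1, epiplakin, was lower at 48 h, at -1.80 ± 0.22 (adjusted p = 9.57e-06). Neither was called at 144 h. Of 4 tested hemidesmosome genes, ITGA6, the integrin chain that anchors cells to laminin, was the only one called, higher by 0.62 ± 0.16 at 24 h (adjusted p = 0.0071) and by 0.67 ± 0.16 at 48 h (adjusted p = 0.00457).

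Of 7 tested genes of desmosome assembly and turnover, 1 was higher and 1 lower at 24 h, 1 higher at 48 h and 0 called at 144 h. These counts lay near or below the shares of all genes called, 26.6%, 20.6% and 5.85% at the same times. ADAM10, a protease that sheds cadherins, rose by 0.63 ± 0.12 at 24 h (limma, adjusted p = 0.000696) and was not called at 48 or 144 h. Its relative ADAM17 rose by 0.47 ± 0.12 at 48 h (adjusted p = 0.0108) and was not called at 24 or 144 h. FLOT1, a membrane scaffold protein, was lower at 24 h, at -0.37 ± 0.13 (adjusted p = 0.0447). Of 11 cornified envelope genes 3 were tested. SPRR1A and CSTA were called at no single time, and FLG, which lay above the median on 3 arrays only, is given by its levels of 5.18 in mir-429 cells and 3.41 in control cells at 48 h.

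The cell type lists held genes called between the arms too. Their counts stand beside 26.6% of all genes called at 24 h, 20.6% at 48 h and 5.85% at 144 h. Of 4 tested endothelial markers 1 was lower at 24 h (ROBO4, -0.69 ± 0.12, limma, adjusted p = 0.000555), 0 were called at 48 h and 2 were higher at 144 h (CDH5 and ROBO4), and their summed level at 24 h was 9.71 to 9.84 in mir-429 cells, against 10.20 to 10.58 in control cells. Of 3 tested fibroblast markers, COL1A1 was lower, with changes of -0.56 ± 0.15 at 24 h (limma, adjusted p = 0.011) and -0.80 ± 0.15 at 48 h (adjusted p = 0.00101). The summed fibroblast level was 8.29 to 8.44 in mir-429 cells, against 8.78 to 8.91 in control cells at 24 h, and 7.69 to 8.14 against 8.41 to 8.67 at 48 h. At 144 h it was 8.45 to 8.58 against 8.79 to 8.95. The summed endothelial level overlapped between the arms at 48 h. At 144 h it was 11.42 to 11.48 in mir-429 cells, against 10.79 to 11.03 in control cells. Of 5 tested ovarian carcinoma markers, 1 was higher and 1 lower at 24 h, 3 were higher at 48 h, and 1 was higher and 1 lower at 144 h. Those higher were the keratins given above. PAX8 was lower at 24 h, at -0.85 ± 0.15 (adjusted p = 0.000409), and WT1 at 144 h, at -0.71 ± 0.13 (adjusted p = 0.00256). No leukocyte marker could be tested. The part of these lists in the desmosome results was not tested.

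Over the 21 arrays, the genes whose profile was most like that of each called desmosome gene were sought by Pearson correlation among the genes tested. These arrays share groups and the 48 h gap in 3′ to 5′ signal, so the values are descriptions. For DSP the nearest were SPINT2 (r = 0.93), an inhibitor of epithelial surface proteases, and CMTM8 (r = 0.93). For PKP2 they were TGFA (r = 0.98), a ligand of the epidermal growth factor receptor, and KLHL28 (r = 0.97). For PKP3 they were MCOLN3 (r = 0.92) and PBDC1 (r = 0.90), for DSG2 ZDHHC20 (r = 0.98) and HDAC2 (r = 0.97), and for DSC2 PRELID3B (r = 0.95) and SEC24B (r = 0.94). Within the desmosome set the nearest gene to DSG2 was PKP2 (r = 0.91), and the nearest to PKP3 was DSP (r = 0.58). For PKP4 the genes most like it were C10orf88 (r = 0.93) and SENP1 (r = 0.93), and PKP3 was the nearest desmosome gene (r = 0.27).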

How the data were processed

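Total RNA of 21 HEY cultures in 7 groups of 3 was measured on arrays. The submitters' processing notes name RMA for the deposited log2 values, whose software and version were not given in the sources used here. Levels spanned 0.746 to 14.97 and were not rescaled. Precision is limited by the number of arrays, which carry no read depth. Of the probe sets 41097 have 1 symbol, 1801 several and 11777 no symbol; an Entrez match to RefSeq (GRCh38.p14) updated symbols for 99.9%. Genes were tested where the brightest probe set exceeded the array median on 3 arrays (12879 of 19775). A mean per group was fitted by lmFit and eBayes of limma 3.58.1 (R 4.3.3), 14 residual and 3.93 prior degrees of freedom, two-sided, with Benjamini-Hochberg adjustment over all genes and a threshold of 0.05. A second fit used the 30519 probe sets that pass the same filter. Errors are SE from these fits unless marked SD. A change against a group below the array median is a bound. Named genes are the members, the genes of 12 lists that passed the test at a single time, and the genes most like a member. Others are named only for their level against the array median. PERP, VIM, SPRR1A and CSTA are named although they were called at no single time. The members and lists were chosen with earlier results of these data known. The code was tested on simulated data. Alternatives were filter, scaling, probe set mean, array weights, covariate, replicate block, arrays fitted and left-out arrays.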

Additional observations from a re-analysis of the deposited data

Results flagged for a closer look

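For 3 genes the mir-429 change at 144 h differed from that at 48 h in a direct test of the difference (limma, adjusted p over all genes). The values were -0.63 ± 0.17 for DSP (0.86 at 144 h against 1.49 at 48 h, adjusted p = 0.0219), -1.17 ± 0.36 for PKP3 (0.72 against 1.89, adjusted p = 0.0493) and -0.49 ± 0.12 for PKP4 (-0.30 against 0.19, adjusted p = 0.0148). Once the gap between 3′ and 5′ control signals entered the model, none of these 3 genes passed (adjusted p = 0.0924 for DSP, 0.225 for PKP3 and 0.0655 for PKP4). For 2 genes the change at 144 h differed from that at 24 h in the comparison added later. The values were -1.15 ± 0.30 for PKP2 (0.62 at 144 h against 1.78 at 24 h, adjusted p = 0.0128) and -0.50 ± 0.12 for PKP4 (-0.30 against 0.21, adjusted p = 0.00875). The PKP2 call was lost with the covariate (adjusted p = 0.0682) and both calls were lost with probe set means (adjusted p = 0.0546 and 0.0509). Groups of 3 arrays are too small for a test of single arrays that lie apart.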

How the results depend on the processing

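The samples were not treated as pairs by replicate number. Deviations of same-numbered arrays correlated at 0.28, 0.09 and 0.18 at 24 h, -0.13, -0.08 and 0.09 at 48 h and 0.20, -0.06 and -0.04 at 144 h. Those of differently numbered arrays ran from -0.29 to 0.10 at 24 h, -0.15 to 0.22 at 48 h and -0.17 to 0.21 at 144 h. At 24 h these values do not settle whether the numbers pair samples. With a replicate block, 1 in place of 2 desmosome genes was called between mir-429 and control cells at 144 h. Each count below is of desmosome genes called among the 6 tested. For mir-429 against control at 24 h (5 called), the 3′ to 5′ covariate gave 3, beside 614 of all genes in place of 3425. At 144 h (2 called), the covariate, the probe set mean and no filter each gave 1, array weights gave 5 and a fit without the 48 h arrays gave 4. Over all genes the covariate called 585 there and the probe set mean 600, against 754 as reported. Except for left-out arrays, calls over all genes with the other settings named here are not given. How far the counts of desmosome genes follow them was not tested. Against untransfected cells, mir-429 cells gave 5 at 24 h with the probe set mean (3 called), 1 at 48 h with the covariate (6 called), and at 144 h 5 with array weights and 1 with the probe set mean (3 called). Control cells gave 0 at 48 h with the covariate (4 called) and 1 at 144 h with array weights (0 called). The 144 h change minus that at 48 h (3 called) gave 1 with the covariate (PKP2, not among the 3) and 1 with only the arrays compared. Minus that at 24 h (2 called), it gave 1 with the covariate, 1 with the probe set mean and 4 without the 48 h arrays. Leaving out 1 array at a time gave 5 to 5 genes at 24 h, beside 2148 to 4033 of all genes called. It gave 3 to 4 at 48 h (beside 2105 to 2612), 1 to 1 at 144 h (326 to 659) and 5 to 5 on average (3113 to 4027). For differences between times it gave 0 to 1 (48 against 24 h), 1 to 3 (144 against 48 h) and 2 to 2 (144 against 24 h). Calls over all genes were then 165 to 1973, 819 to 1484 and 1499 to 3124. Against untransfected cells it gave 3 to 3, 4 to 6 and 2 to 2 for mir-429 cells and 3 to 4, 4 to 4 and 0 to 0 for control cells at 24, 48 and 144 h. Calls over all genes were then 2099 to 2645, 6394 to 6760 and 1272 to 1822 for mir-429 cells. For control cells they were 3483 to 5255, 6076 to 6876 and 25 to 62.

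Of 786 values of single genes, 717 kept direction and call, 42 lost and 16 gained a call, and 11 turned sign, all of them uncalled. In the 48 h change minus that at 24 h, PKP2 (-0.23) gave 0.35 with the covariate and -0.52 to 0.039 over left-out arrays (0.039 without control 48 h replicate 2), and DSC2 (-0.36) gave 0.12 with the probe set mean. There PKP4 (-0.01) gave 0.16 with the probe set mean, 0.033 with cyclic loess, 0.014 with quantile scaling and -0.051 to 0.036 over left-out arrays, above 0 without control 24 h replicate 3, control 48 h replicate 2 or mir-429 24 h replicate 1. In the 144 h change minus that at 48 h, DSC2 (-0.08) gave -0.27 to 0.025 over left-out arrays, above 0 without control 48 h replicate 1 or 3. Where no alternative's construction shows it, the cause was not tested. Signal limits JUP, DSC3, PPL and EVPL, which lay near background.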
